A study of Rattus norvegicus with 16 samples.

Results

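The complement components and regulators described here are 9 genes of the complement system, C3, C1s, C1r, Cfb, Cfi, Serping1, Cd55, Cd59 and A2m, out of 32623 genes in the count data. They were chosen by name: a gene was a member when its symbol equalled one of these names, and each name was found once. The names were chosen with earlier results of these data known, so counts and medians of members beside all genes are descriptive only.

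Complement is a system of proteins in blood and tissue fluid that marks microbes, immune complexes and damaged cells and can open pores in membranes. In the classical pathway C1q binds its target and activates the serine proteases C1r and C1s, which lead to the splitting of C3, the central component, while the alternative pathway needs factor B and factor D. Soluble and membrane-bound regulators limit these steps on the body's own cells; the liver makes most of the plasma proteins, and kidney tubule cells and fibroblasts are also known to make several.

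RNA was sequenced from NRK-52E, a rat kidney line labelled as epithelial, and NRK-49F, a rat kidney fibroblast line, grown in indirect co-culture with NRK-52E on a porous filter insert and NRK-49F in the well. After 24 h without serum, both lines were kept for 48 h in medium of pH 7.4 (control) or pH 6.0 (acidic), and RNA was taken from each line separately. The 16 libraries form 4 groups of 4, NRK-52E at pH 7.4, NRK-52E at pH 6.0, NRK-49F at pH 7.4 and NRK-49F at pH 6.0. Each cell type is a single established line, and cell line and growth support (filter or plastic) cannot be told apart. Nothing in the labels says that the libraries of a group came from separate cultures, so the p-values below measure the spread between these libraries, which may be technical.

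Total counts per library ranged from 16201084 to 34784862. The median was 19132387 for NRK-52E at pH 7.4 (17760185 to 20612657) and 21199012 at pH 6.0 (16844811 to 23856187). For NRK-49F it was 20316553 at pH 7.4 (17518187 to 27607214) and 29093537 at pH 6.0 (16201084 to 34784862). At least 1 count was seen for 22082 genes. Levels are given as FPM, fragments per 1000000 of the library size after TMM scaling; FPM is not divided by gene length, so levels are compared between groups and not between genes. Sums of marker lists and their most abundant gene, given below, are therefore by counted fragments and not by molecules. A count of 0 in a library allows a level of up to 3 counts, which is 0.0938 to 0.199 FPM depending on the library, for counting error only.

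Marker genes of the labelled cell types were examined first. Of 10 epithelial markers, 4 to 6 had more than 3 counts in the NRK-52E libraries at pH 7.4 and 3 to 7 at pH 6.0. Their summed level was 472 ± 31.9 FPM (SD, n = 4) at pH 7.4 and 333 ± 26.8 FPM at pH 6.0, most of it from the keratin Krt8 (means of 430 and 316 FPM). Krt8 was the most abundant epithelial marker in NRK-49F too, with a mean of 848 FPM at pH 7.4 and 206 FPM at pH 6.0. The defining epithelial markers Epcam and Krt18 had at most 4 counts in any library, Esrp1 had 0 in all 16, and the cadherin Cdh1 had an NRK-52E mean of 1.62 FPM in control and 0.315 FPM in acidic medium. Krt7, another epithelial keratin, averaged 36.7 FPM in NRK-52E against 0.463 FPM in NRK-49F at pH 7.4, and its NRK-52E mean was also the higher one at pH 6.0, which is the direction of the labels. The markers near 0 thus go against the epithelial label and Krt7 goes with it, and the groups are called by the names of the lines.

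The summed level of 10 fibroblast markers was 6661 ± 122 FPM (SD, n = 4) in NRK-52E at pH 7.4, 2891 ± 643 FPM at pH 6.0, and 7492 ± 567 and 9031 ± 806 FPM in NRK-49F. Its most abundant gene was the collagen Col3a1 in every NRK-52E library (means of 6221 and 2630 FPM) and the collagen Col1a1 in every NRK-49F library (6205 and 8288 FPM). Pdgfra, a receptor of mesenchymal cells, averaged 392 and 368 FPM in NRK-49F against 0.286 and 0.0561 FPM in NRK-52E, and Thy1 had 0 counts in all 16 libraries.

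Of 8 leukocyte markers, the defining Ptprc and Adgre1 had 0 counts in all 16 libraries. The sum of the list was 84.0 ± 9.29 and 81.1 ± 19.1 FPM (SD, n = 4) in NRK-52E at pH 7.4 and 6.0, and 362 ± 17.2 and 372 ± 18.6 FPM in NRK-49F. Cd14 was its most abundant gene except in NRK-49F at pH 6.0, where Cd68 was (243 FPM, against 81.2 FPM at pH 7.4). The sum of 3 endothelial markers was 41.2 ± 3.99 FPM in NRK-52E at pH 7.4 and 7.08 ± 0.98 FPM at pH 6.0, nearly all from Tek, with Kdr at 0 in all 16 libraries; in NRK-49F it was 0.796 and 0.51 FPM. The sum of 4 hepatocyte markers was 1.35 and 1.15 FPM in NRK-52E, and 20.9 and 9.38 FPM in NRK-49F, there mostly from Serpina1. The part of these marker shifts in the results below was not tested.

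The first question was which complement genes differed between acidic and control medium in each line. The mRNAs of the proteases C1r and C1s fell at pH 6.0 in both lines, C3 fell in NRK-49F, and the protease inhibitor Serping1 fell in NRK-52E. The membrane regulator Cd55 fell in NRK-52E, and the protease inhibitor A2m fell in NRK-49F. Cd59, which blocks the pore-forming complex on cell surfaces, fell in NRK-52E and rose in NRK-49F. Within a line, a change in the share of cells that express a gene and a change in its RNA per cell cannot be told apart in such bulk samples.

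A gene was called when its false discovery rate was below 0.01 in both edgeR and DESeq2, fitted across all genes. In NRK-52E, 6 of the 9 members had enough counts to be tested, of which 0 were called higher and 5 lower at pH 6.0, beside 28.2% of 13735 genes called higher and 28.4% called lower. All 6 estimates were below 0, so the count called higher is also 0 with edgeR alone, with DESeq2 alone and at an unadjusted p under 0.05. In NRK-49F, 8 members were tested, of which 1 was called higher and 4 lower, beside 18.5% and 19.4% of 13339 genes. The members tested had a median log2 fold change of -1.44 for NRK-52E and of -0.82 for NRK-49F, where the medians of all genes tested were both 0.00. Cfb passed the filter on low counts in neither line, and Cfi and A2m passed it in NRK-49F alone. There A2m passed through its libraries at pH 7.4 (22 to 44 counts) and not through those at pH 6.0 (5 to 11 counts). The direction of its call is thus tied to the filter, which limits the count of members lower and the list counts below that include A2m.

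The second question was how the lines differed at each pH. Of 8 members tested at pH 7.4, 3 were called higher and 4 lower in NRK-49F than in NRK-52E, beside 33.3% and 33.2% of 14026 genes, and at pH 6.0 the counts were 3 and 2 of 6, beside 31.3% and 28.5% of 13796 genes. The interaction of line and pH, the pH effect in NRK-49F minus that in NRK-52E, was called above 0 for 2 and below 0 for 1 of 8 members, beside 17.6% and 19.4% of 14679 genes. Between lines, Serping1 passed the filter through NRK-52E at both pH values, and A2m passed through NRK-49F at pH 7.4. The direction of these calls is likewise tied to the filter. The comparisons between pH values and between lines use the same libraries and are not independent of one another.

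**Figure D1:**
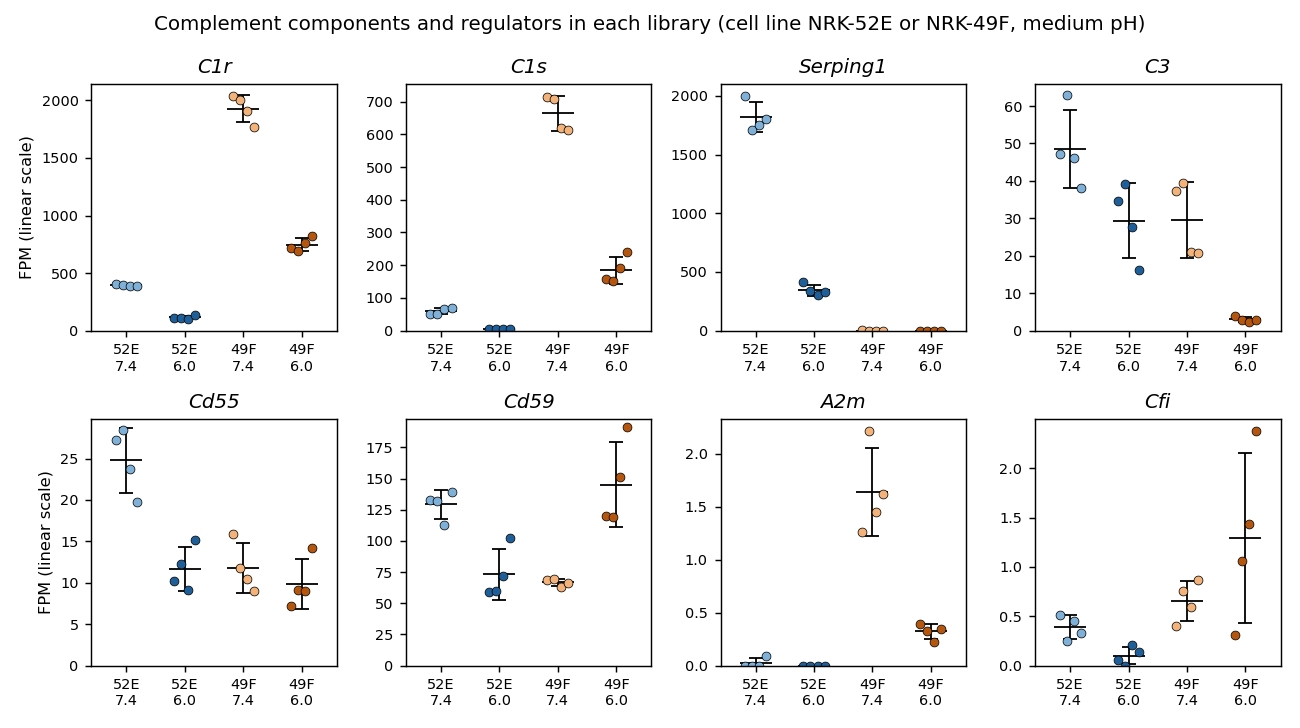
Level in FPM (linear axis) of 8 complement members in the 4 groups. Points are libraries, and bars are the mean ± SD of 4 libraries; C1s and C1r are highest in NRK-49F at pH 7.4, and Serping1 is near 0 in NRK-49F.

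C1r (ENSRNOG00000011796, chromosome 4 of the rn6 genome) encodes the protease that activates C1s. Its level in NRK-52E was 402, 398, 387 and 385 FPM at pH 7.4 and 112, 107, 105 and 136 FPM at pH 6.0. In NRK-49F it was 2037, 2001, 1905 and 1773 FPM at pH 7.4 and 717, 688, 765 and 819 FPM at pH 6.0. Every library at pH 6.0 lay below every library at pH 7.4 of the same line. The log2 fold change was -1.79 (SE 0.105, adjusted p = 2.92e-07, edgeR) in NRK-52E, where the mean at pH 6.0 was 29.3% of the control, and -1.38 (SE 0.0976, adjusted p = 4.07e-07) in NRK-49F, where it was 38.7%. A 2-sided exact permutation test of log2(FPM + 1) gave p = 0.0286 in each line, the smallest value that 4 against 4 libraries can give. C1r was higher in NRK-49F by 2.21 log2 units (SE 0.0805) at pH 7.4 and 2.71 (SE 0.126) at pH 6.0, both called. The interaction was 0.42 (SE 0.138, adjusted p = 0.0168, edgeR), which was not called. It was called without NRK-52E pH 6.0 replicate 1 (0.52) or replicate 4 (0.51), by DESeq2 alone (0.43) and with library totals in place of TMM (0.66, adjusted p = 0.000441, edgeR).

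C1s (ENSRNOG00000011971, chromosome 4) encodes the protease that cleaves C4 and C2. In NRK-52E its level was 51.5, 51.8, 65.3 and 67.8 FPM at pH 7.4 and 4.1, 4.18, 4.75 and 5.74 FPM at pH 6.0. In NRK-49F it was 713, 709, 620 and 613 FPM at pH 7.4 and 157, 151, 191 and 241 FPM at pH 6.0. The groups did not overlap, and the order was that of C1r, with NRK-49F at pH 7.4 highest, then NRK-49F at pH 6.0, NRK-52E at pH 7.4 and NRK-52E at pH 6.0, no neighbours overlapping for either gene. The log2 fold change at pH 6.0 was -3.67 (SE 0.166, adjusted p = 7.33e-08, edgeR) in NRK-52E and -1.86 (SE 0.14, adjusted p = 7.03e-07) in NRK-49F, with an exact permutation p of 0.0286 in each. The mean at pH 6.0 was 7.94% of the control for NRK-52E cells, 27.9% for NRK-49F cells, and the interaction was called at 1.82 (SE 0.211, adjusted p = 1.58e-06, edgeR). By the ratio of mean FPM, C1s was 11.2-fold higher in NRK-49F at pH 7.4 and 39.4-fold higher at pH 6.0. The edgeR log2 differences were 3.4 (SE 0.122, adjusted p = 3.68e-10) and 5.31 (SE 0.192, adjusted p = 2.86e-10).

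C3 (ENSRNOG00000046834, chromosome 9) encodes the component on which all complement pathways meet. Its level in NRK-49F was 37.3, 39.4, 21 and 20.7 FPM at pH 7.4 and 4.03, 2.98, 2.21 and 2.78 FPM at pH 6.0. The lowest control library lay far above the highest library at pH 6.0, and the control libraries formed a higher and a lower pair, which are those with 20 and with 21 as the second number of their names. The log2 fold change was -3.33 (SE 0.268, adjusted p = 1.3e-06, edgeR; exact permutation p = 0.0286), and the mean at pH 6.0 was 10.1% of the control. In NRK-52E, C3 was at 47.1, 62.9, 46.2 and 38.1 FPM at pH 7.4 and 34.6, 39.1, 27.6 and 16.3 FPM at pH 6.0. The highest library at pH 6.0 overlapped the lowest control library, and the estimate of -0.75 (SE 0.24) was not called, with an adjusted p of 0.0164 from edgeR and 0.00715 from DESeq2 and an exact permutation p of 0.0571. It was called without NRK-52E pH 6.0 replicate 2 (-0.93, adjusted p = 0.00671, edgeR), with library totals in place of TMM (-0.96, 0.00538) and with the second number of the library names as a covariate (-0.78, 0.0038). The interaction was called at -2.57 (SE 0.384, adjusted p = 2.68e-05, edgeR).

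By mean, C3 was highest in NRK-52E at pH 7.4, followed by NRK-49F at pH 7.4, NRK-52E at pH 6.0 and NRK-49F at pH 6.0. Of these neighbours, the last alone did not overlap. By the ratio of mean FPM, C3 was 9.79-fold lower in NRK-49F at pH 6.0 (edgeR log2 -3.28, SE 0.288, adjusted p = 6.79e-07). At pH 7.4 the difference was -0.80 (SE 0.225, adjusted p = 0.00679, edgeR), called although the groups overlapped and the exact permutation p was 0.0571. That call was lost without NRK-52E pH 7.4 replicate 1 (-0.81), 2 (-0.65) or 3 (-0.81), without NRK-49F pH 7.4 replicate 3 (-0.67) or 4 (-0.65), without the filter (-0.79) and with all 16 libraries in 1 fit (-0.71). Within the number 21, the one that both lines share, it was called (-1.47, adjusted p = 0.000424, edgeR).

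Cfb (ENSRNOG00000000419, chromosome 20), factor B of the alternative pathway, had 4 counts over the 16 libraries and no library above 1 count. It was below what this depth can measure in all 4 groups, and no fold change is given.

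Serping1 (ENSRNOG00000007457, chromosome 3) encodes C1 inhibitor, which blocks C1r and C1s. In NRK-52E its level was 2003, 1713, 1751 and 1807 FPM at pH 7.4 and 414, 335, 308 and 327 FPM at pH 6.0. The groups lay far apart, with a log2 fold change of -2.41 (SE 0.119, adjusted p = 1.11e-07, edgeR; exact permutation p = 0.0286) and a mean at pH 6.0 of 19% of the control. In NRK-49F the libraries held 27, 7, 11 and 2 counts at pH 7.4 and 4, 6, 31 and 17 counts at pH 6.0, or 0.675 ± 0.636 and 0.529 ± 0.351 FPM (SD, n = 4). These groups overlapped widely, the estimate of -0.24 (SE 0.69, adjusted p = 0.788, edgeR) was not called, and its sign turned without NRK-49F pH 7.4 replicate 1 (0.60) or NRK-49F pH 6.0 replicate 1 (0.04). Serping1 was lower in NRK-49F at pH 7.4 (log2 -11.6, SE 0.389, adjusted p = 2.2e-10, edgeR) and at pH 6.0 (log2 -9.23, SE 0.304, adjusted p = 1.34e-10), with no overlap. Without NRK-49F pH 7.4 replicate 1, the pH 7.4 difference was -12.45. The interaction of 2.28 was not called (adjusted p = 0.00387 from edgeR and 0.0222 from DESeq2), and was called without NRK-49F pH 7.4 replicate 1 (3.15) or 4 (1.81) and without NRK-49F pH 6.0 replicate 1 (2.56).

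A2m (ENSRNOG00000028896, chromosome 4), alpha-2-macroglobulin, is a broad protease inhibitor. In NRK-49F the libraries held 22, 44, 22 and 41 counts at pH 7.4, or 1.26, 2.22, 1.45 and 1.62 FPM, and 9, 5, 7 and 11 counts at pH 6.0, or 0.398, 0.332, 0.227 and 0.344 FPM. No library overlapped between the groups, and the log2 fold change was -2.35 (SE 0.35, adjusted p = 0.000131, edgeR, and exact permutation p = 0.0286). A2m passed the filter through the libraries at pH 7.4 alone, so this direction is tied to the filter. In NRK-52E, 2 counts in 1 control library were all that was seen, so A2m was higher in NRK-49F at pH 7.4 by a call whose fold depends on the prior count and is not given. Its interaction cannot be read for the same reason. At pH 6.0, where edgeR did not test it, the lines did not overlap (exact permutation p = 0.0286; adjusted p = 0.00025, DESeq2).

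Cfi (ENSRNOG00000053400, chromosome 2), factor I, cleaves the active forms of C3 and C4 with the help of cofactors. It was low in every group, at 0.388 ± 0.121 FPM (SD, n = 4) in NRK-52E at pH 7.4 and 0.102 ± 0.0898 FPM at pH 6.0, and at 0.655 ± 0.205 and 1.29 ± 0.859 FPM in NRK-49F. The NRK-52E libraries held 11, 6, 11 and 7 counts at pH 7.4 and 1, 0, 5 and 3 counts at pH 6.0, without overlap (exact permutation p = 0.0286), too few for the edgeR filter. In NRK-49F the groups overlapped, and the estimate of 0.97 (SE 0.502, adjusted p = 0.122, edgeR) was not called. The interaction of 2.81 (SE 0.876, adjusted p = 0.0122, edgeR) was not called, and was called without NRK-52E pH 6.0 replicate 3 (3.43) or NRK-49F pH 6.0 replicate 1 (3.14), by DESeq2 alone (2.89) and with library totals (3.04, adjusted p = 0.00743, edgeR). None of these is an exact size, since NRK-52E at pH 6.0 had a mean below the level of 3 counts. At pH 6.0 the lines did not overlap for Cfi (exact permutation p = 0.0286; adjusted p = 2.53e-05, DESeq2), which edgeR did not test there.

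Cd55 (ENSRNOG00000003927, chromosome 13) encodes decay-accelerating factor, a membrane protein that takes C3-splitting complexes apart. In NRK-52E its level was 27.2, 28.5, 23.7 and 19.8 FPM at pH 7.4 and 10.2, 12.3, 9.18 and 15.2 FPM at pH 6.0, so that every library at pH 6.0 lay below every control. The log2 fold change was -1.10 (SE 0.186, adjusted p = 0.000367, edgeR; exact permutation p = 0.0286). In NRK-49F the level ran from 8.97 to 15.9 FPM at pH 7.4 (mean 11.8 ± 2.96, SD, n = 4) and was 7.22, 9.15, 8.97 and 14.2 FPM at pH 6.0. These groups overlapped (log2 -0.26, SE 0.226, adjusted p = 0.351, edgeR). Cd55 was lower in NRK-49F at pH 7.4 (-1.16, SE 0.174, adjusted p = 8.41e-05, edgeR), and at pH 6.0 the difference of -0.23 (SE 0.239, adjusted p = 0.411) was not called. The interaction of 0.85 (SE 0.309, adjusted p = 0.0284, edgeR) was not called either, and was called without NRK-52E pH 6.0 replicate 4 (1.01), with library totals (1.09, adjusted p = 0.00735, edgeR) and within the second number 21 of the library names (1.58, adjusted p = 0.00593).

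Cd59 (ENSRNOG00000042821, chromosome 3) encodes the membrane inhibitor of the terminal complex. In NRK-52E its level was 133, 132, 113 and 139 FPM at pH 7.4 and 59.0, 59.5, 71.9 and 102 FPM at pH 6.0. In NRK-49F it was 68.6, 69.2, 63.1 and 66.3 FPM at pH 7.4 and 120, 119, 151 and 191 FPM at pH 6.0. Neither line's pH groups overlapped, and the direction was opposite in the lines: lower at pH 6.0 in NRK-52E (log2 -0.83, SE 0.172, adjusted p = 0.00138, edgeR) and higher in NRK-49F (1.10, SE 0.135, adjusted p = 3e-05), with an exact permutation p of 0.0286 in each. The interaction was called at 1.95 (SE 0.231, adjusted p = 2.02e-06, edgeR). The line difference was -1.03 (SE 0.0783) at pH 7.4 and 1.0 (SE 0.198) at pH 6.0, both called. By mean, NRK-49F at pH 6.0 was highest and overlapped NRK-52E at pH 7.4, and NRK-52E at pH 6.0 overlapped NRK-49F at pH 7.4, the lowest.

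The deposited library names carry a second number, 21 or 22 in NRK-52E and 20 or 21 in NRK-49F, whose meaning is not stated, and each number holds 2 libraries of each pH. In NRK-52E the log2 fold changes within 21 and within 22 were -1.91 and -1.69 for C1r, -3.68 and -3.68 for C1s, -2.35 and -2.51 for Serping1, and -0.62 and -0.97 for C3. For Cd55 they were -1.35 and -0.85 and for Cd59 -1.20 and -0.55; the value within 22 was not called for either gene (edgeR adjusted p = 0.0743 and 0.0978). In NRK-49F the values within 20 and within 21 were -1.52 and -1.23 for C1r, -2.20 and -1.53 for C1s, -3.42 and -3.08 for C3, and 0.80 and 1.38 for Cd59. For A2m they were -2.22 and -2.43, neither called by edgeR and DESeq2 together (edgeR adjusted p = 0.00293 and 0.00642). For Cd55, not called over the 8 libraries, the estimate was -0.76 within 20 (adjusted p = 0.00577, edgeR) and 0.24 within 21 (0.567), neither called by edgeR and DESeq2 together. The direction of each called pH effect was thus the same within each number. Between lines, number 21 alone is shared, where the difference at pH 7.4 was 2.13 for C1r, 3.51 for C1s, -1.47 for C3, -1.59 for Cd55, -1.10 for Cd59 and -12.50 for Serping1. The interaction within 21 was 2.14 for C1s, -2.46 for C3, 2.57 for Cd59 and 1.58 for Cd55, all 4 called. It was 3.53 for Serping1 (adjusted p = 0.00446, edgeR), 0.67 for C1r (0.0378) and, not as an exact size, 4.96 for Cfi (0.0119). None of these was called by edgeR and DESeq2 together. The Cfi estimate in NRK-49F was 0.12 within 20 and 1.33 within 21, neither called.

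**Figure D2:**
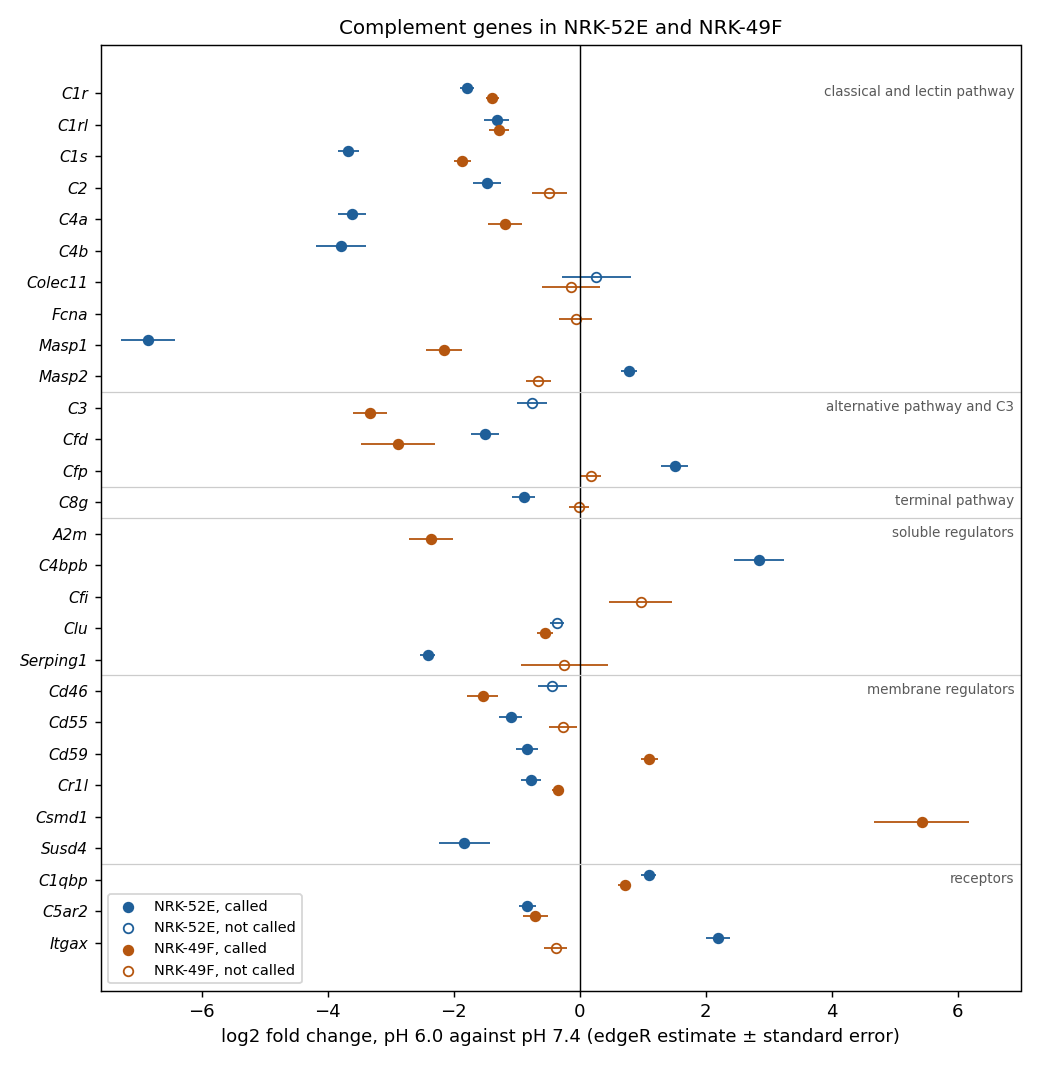
Log2 fold change at pH 6.0 against pH 7.4 (± SE, edgeR) of listed complement genes tested in NRK-52E or NRK-49F, 4 libraries per group. Filled points were called in both edgeR and DESeq2, and points for Masp1 in NRK-52E and for Cfd and Csmd1 in NRK-49F rest on a group below 3 counts and are not exact sizes; C1s and C1r are below 0 in both lines, and Cd59 has opposite signs.

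The members were next set beside other complement genes, taken from lists by role. Of 57 complement genes listed, 55 were among the genes counted. In NRK-52E, 25 were tested, of which 5 were called higher and 16 lower at pH 6.0 (median log2 fold change -0.89), beside 28.2% and 28.4% of all genes; in NRK-49F, 26 were tested, of which 3 were called higher and 13 lower (median -0.51), beside 18.5% and 19.4%. The same shares of all genes apply to the lists by role that follow. Without the members, the counts were 5 higher and 11 lower of 19 in NRK-52E and 2 higher and 9 lower of 18 in NRK-49F. Between lines, 9 were called higher and 11 lower in NRK-49F of 27 tested at pH 7.4 (median -0.27), beside 33.3% and 33.2% of all genes, and 10 and 9 of 25 at pH 6.0 (median -0.01), beside 31.3% and 28.5%, where the medians of all genes were -0.03 and 0.03.

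The classical and lectin pathway list held 18 genes, 17 of them counted. In NRK-52E, 1 of 9 tested was called higher and 7 lower (median -1.79), and in NRK-49F 0 of 9 were called higher by edgeR and DESeq2 together and 5 lower (median -1.19). C1qa, C1qb and C1qc, the chains of C1q, had 0 counts in all 16 libraries. Masp1, a protease of the lectin pathway, fell in NRK-52E from a mean of 8.78 to 0.0745 FPM (adjusted p = 4.02e-07, edgeR), a level below that of 3 counts, so no fold is given, and in NRK-49F from 41.6 to 9.29 FPM (log2 -2.16, SE 0.288, adjusted p = 6.61e-05, edgeR), a call lost within the number 21 (-1.83, adjusted p = 0.0275). Masp2, the related protease that cleaves C4, rose in NRK-52E from 14.8 to 26.0 FPM (0.79, SE 0.127) and was at 10.4 and 6.68 FPM in NRK-49F, which was not called. C1rl, a protease related to C1r, was at 7.07 and 2.87 FPM in NRK-52E and 58.5 and 24.3 FPM in NRK-49F, a fall of -1.31 and -1.28 log2 units. C2, which C1s cleaves, was at 7.17 and 2.63 FPM in NRK-52E. C4a was at 44.4 and 3.67 FPM in NRK-52E and 2.47 and 1.1 FPM in NRK-49F, and C4b at 3.08 and 0.211 FPM in NRK-52E; as near-identical copies whose shared fragments were counted at each place, their separate levels are uncertain. Fcna, a ficolin that recognises sugars, was at 1.75 and 1.67 FPM in NRK-49F and at 0.0102 FPM in both NRK-52E groups. At pH 7.4, 5 of 10 genes tested were called higher in NRK-49F and 4 lower (median 1.28).

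In the alternative pathway list of 4 genes, 1 of 3 tested was called higher and 1 lower in NRK-52E (median -0.75), and 0 and 2 of 3 in NRK-49F (median -2.89). Cfd, factor D, which cleaves factor B, fell from 7.31 to 2.64 FPM in NRK-52E (log2 -1.50, SE 0.222) and from 0.631 to 0.0897 FPM in NRK-49F, the latter again below 3 counts. Cfp, properdin, which stabilises the C3-splitting enzyme, rose from 5.87 to 17.0 FPM in NRK-52E (1.51, SE 0.211) and was at 4.82 and 5.49 FPM in NRK-49F. Of 7 terminal pathway genes, C8g alone was tested, called lower in NRK-52E (7.11 to 3.89 FPM) and not called in NRK-49F (log2 -0.01), and C8b had 0 counts in all 16 libraries.

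Of 10 soluble regulators, 1 of 4 tested was called higher and 2 lower in NRK-52E (median -0.63), and 0 and 3 of 5 in NRK-49F (median -0.55). C4bpb, a chain of C4-binding protein, rose in NRK-52E from 0.398 to 2.87 FPM (2.85, SE 0.399). Clu, clusterin, was at 1738 and 1201 FPM in NRK-49F (-0.55, SE 0.128), a call lost without NRK-49F pH 7.4 replicate 1 or 2 or NRK-49F pH 6.0 replicate 3, with estimates from -0.64 to -0.48 over all libraries left out.

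Among 8 membrane regulators, 7 of them counted, 0 of 5 tested were called higher by edgeR and DESeq2 together and 4 lower in NRK-52E (median -0.83), and 2 and 2 of 5 in NRK-49F (median -0.26). Cd46, a cofactor for factor I, fell in NRK-49F from 3.15 to 1.08 FPM (log2 -1.54, SE 0.246, adjusted p = 0.000224, edgeR) and was at 4.42 and 3.33 FPM in NRK-52E, not called. Its NRK-49F call was lost within the number 21 (-1.29, adjusted p = 0.0384, edgeR). Cr1l, a rodent regulator also called Crry, fell in NRK-52E from 101 to 59.8 FPM (-0.77, SE 0.162), a call lost within the number 22 (-0.61, adjusted p = 0.116, edgeR). In NRK-49F it accounts for 1 of the 2 lower calls (234 and 187 FPM, -0.34, adjusted p = 0.00994, edgeR), which held without NRK-49F pH 7.4 replicate 4 but was lost without any of the other 7 libraries (estimates from -0.42 to -0.30) and under 5 of 9 other settings. Of 10 receptor genes, 2 of 3 tested were called higher and 1 lower in NRK-52E (median 1.10), and 1 and 1 of 3 in NRK-49F (median -0.38). Itgax, the alpha chain of complement receptor CR4, rose in NRK-52E from 1.9 to 8.85 FPM (2.20, SE 0.186) and was at 109 and 84.4 FPM in NRK-49F. Itgb2 of the same list, the beta chain of CR4, had 9 counts over the 16 libraries and at most 3 in any, so the Itgax level does not show the receptor. C1qbp, a protein first isolated by its binding of C1q and found mainly in mitochondria, rose in both lines, from 110 to 237 FPM (1.10, SE 0.117) and from 141 to 234 FPM (0.71, SE 0.102). Its NRK-49F call was lost within the number 21 (0.57, adjusted p = 0.0237, edgeR). C5ar2, a receptor for C5a, fell in NRK-52E from 15.7 to 8.95 FPM (-0.83, SE 0.136). Its NRK-49F levels were 13.7 and 8.51 FPM (-0.70, SE 0.197, adjusted p = 0.00968, edgeR), a call that held without NRK-49F pH 7.4 replicate 3 or NRK-49F pH 6.0 replicate 4 but was lost without any of the other 6 libraries (estimates from -0.86 to -0.62), under 4 of 9 other settings and within the number 21 (-0.50). Cr2 and Vsig4 had 0 counts in all 16 libraries. Within a single second number, with 4 libraries, the NRK-52E calls of C5ar2 and C8g and the NRK-49F call of Cfd were lost in both numbers. Within 22 alone, the NRK-52E calls of Masp2 (0.84, adjusted p = 0.0239, edgeR), Cfp (1.29, 0.0263) and C4bpb (3.15, 0.0105) were lost. Within 21 alone, those of Cfd in NRK-52E (-1.36, adjusted p = 0.0149, edgeR) and Clu in NRK-49F (-0.49, 0.0748) were lost.

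Across the 16 libraries, likeness to a member was measured as the root mean square difference in log2(FPM + 1) after centring each gene, among 9813 genes. The genes most like C1r were Kctd17 (0.213), Arntl2 (0.241) and Nrp2 (0.247), and those most like C1s were Ccn5 (0.421), Etv1 (0.496) and Card10 (0.539). For C3 they were Gprc5c (0.373), Col5a3 (0.486) and Arhgef28 (0.52). Serping1 was most like Eln (0.584), Aldh1a2 (0.753) and Igfbp2 (0.843). For Cd55 the values were 0.231 for Rasl11b, 0.253 for Slc10a7 and 0.255 for Hoxc4, and for Cd59 they were 0.187 for Ugt1a6, 0.209 for Brca1 and 0.223 for Fen1.

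C1rl, C1r and C1s are neighbouring protein-coding genes on chromosome 4 in the RefSeq gene table of the GRCr8 build. Promoter sequence from a separate RefSeq promoter table of that build, 250 bases before the start of the gene, was matched by symbol for 4 of the 9 members, C3, C1r, Cfi and Cd55, and that promoter table had no entry for C1s, Serping1, Cfb, Cd59 and A2m. The sequences of C3 and C1r are shown because both genes fell at pH 6.0 in NRK-49F. They lie at chr9:2201340-2201589 on the minus strand and chr4:159098763-159099012 on the plus strand of GRCr8, and capitals mark the match to the C/EBP motif TTGCNNAA on either strand.
C3: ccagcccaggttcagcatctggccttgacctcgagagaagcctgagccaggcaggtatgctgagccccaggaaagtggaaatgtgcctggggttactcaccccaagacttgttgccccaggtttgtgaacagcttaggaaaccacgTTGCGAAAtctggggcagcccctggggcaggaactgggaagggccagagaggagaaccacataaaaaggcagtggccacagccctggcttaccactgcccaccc
C1r: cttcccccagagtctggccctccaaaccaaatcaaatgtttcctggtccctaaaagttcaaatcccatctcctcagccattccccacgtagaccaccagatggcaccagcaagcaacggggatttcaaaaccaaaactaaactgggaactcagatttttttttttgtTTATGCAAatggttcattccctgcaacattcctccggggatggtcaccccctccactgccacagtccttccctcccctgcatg
Searched on both strands were 5 motifs. Among 33469 promoters of this length, 7.67% held the GAS motif TTCNNNGAA, 8.12% the ISRE part GAAANNGAA, 3.54% the NF-kappaB consensus, 9.22% the C/EBP motif and 12.9% the TATA box TATAAA; the GAS and ISRE motifs can share their letters GAA. C3 and C1r each held 1 C/EBP match, at positions 147 and 168 of the window, and no other match was found in the 4 windows, which says only that these letters are not there.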

How the data were processed

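The counts are those deposited by the authors. By their methods, poly(A) RNA was sequenced as 2 × 150 base pairs and aligned to rn6; the methods name tophat2 2.0.14, and the submitters' processing notes name HISAT2 2.1.0. Fragments were counted per Ensembl gene with featureCounts 2.0, with multi-mapping fragments counted at each place; strand use is not stated.

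From there, edgeR 4.0.16 (TMM, filterByExpr, robust quasi-likelihood test) and DESeq2 1.42.0 (Wald test) were run in R 4.3.3 with limma 3.58.1, each pH or line comparison on its 8 libraries and the interaction on all 16. Log2 fold changes are from edgeR unless DESeq2 is named. Values given as a fold or as a percentage of the control are ratios of mean FPM. Adjusted p-values are over all genes tested. Single levels were compared by a 2-sided exact permutation test of log2(FPM + 1) in Python 3.11.15 with scipy 1.17.1. The members and lists were chosen with earlier results of these data known. Named list genes were called in some comparison with a highest group mean of at least 1 FPM. They are at most the 3 largest rises and falls per line and the 3 largest line differences at pH 7.4 in each direction. Genes with 0 counts in all libraries are named too, and Itgb2 is named beside Itgax. Likeness used non-member genes with a gene symbol (identifiers, clone, LOC, RGD, NEWGENE and microRNA names left out) and at least 10 FPM in their highest group and names the 3 nearest. Alternatives were edgeR or DESeq2 alone, a false discovery rate of 0.05, DESeq2 size factors in edgeR, library totals, and other or no filters. Further ones were a covariate, 1 fit of all 16 libraries, each second number alone and leaving out each library. For the permutation test of members, 0.1 was added to FPM in place of 1. Single values of some list genes are not reported here; the counts and medians of the lists include them.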

Additional observations from a re-analysis of the deposited data

Results flagged for a closer look

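The pH effect differed between the lines by the interaction test (edgeR and DESeq2, false discovery rate below 0.01) for 3 of 8 members tested, 2 above and 1 below 0, beside 17.6% and 19.4% of all genes tested, so the members' share is near that of all genes. The difference, NRK-49F minus NRK-52E in log2 units, was -2.57 for C3, 1.82 for C1s and 1.95 for Cd59. Among other complement genes it was 2.42 for C4a, -1.44 for Masp2, -1.33 for Cfp and -2.57 for Itgax. For Masp1 the fitted value was 4.70, which depends on the prior count and is not an exact size, since NRK-52E at pH 6.0 was below 3 counts. It was 0.89 for C8g, a call lost without 4 of the 16 libraries in turn (largest adjusted p = 0.0139, edgeR), and -1.09 for Cd46, lost without 12 of them (0.0388). Among acute phase proteins it was 2.89 for Lbp, -2.0 for Hpx and -1.30 for Lcn2. It was 1.46 for Hp, lost without 6 of the 16 libraries in turn (0.0123), and -0.66 for Cp, lost without 13 (0.0272). Among 25 cytokine signalling genes tested, 1 was called above and 9 below 0; of those named by the rule for list genes, it was -2.29 for Irf7, -1.97 for Relb, -1.68 for Socs1 and -1.28 for Ifngr2, and 0.54 for Irf9, lost without 8 of the libraries in turn (0.0143). Within 21, the second number of the library names that both lines share, the calls of Masp2 (-1.0), Cfp (-1.45), Hpx (-1.96), Lcn2 (-1.08) and Socs1 (-1.36) were lost as well, as were those of C8g, Cd46, Hp, Cp and Irf9, none with a change of direction.

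Of 27 groups of 4 libraries with a mean count of at least 10 for a member, 0 held a library set apart by Dixon's test, where chance gives 1.4, and 9 groups had too few counts.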

How the results depend on the processing

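For single members, 350 values under other settings kept direction and side of the threshold, 15 came to be called, 6 lost a call and 4 turned. The 350 include permutation tests of all 9 members, also those with few counts, with 0.1 in place of 1 added to FPM. Their threshold was a p of 0.05 and not a call. Leaving out 1 library gave 330, 9, 5 and 8. Within 1 second number (4 libraries, except for the interaction, which took those of both lines and pH values), genes called in NRK-52E were 2480 higher and 2741 lower within 21. Within 22 they were 1368 higher and 1325 lower, with 3 members lower. In NRK-49F within 21 they were 1164 higher and 1122 lower, and between lines at pH 7.4 within 21 they were 2925 higher and 2770 lower. For the interaction within 21 they were 1412 above and 1178 below 0. At pH 6.0, 5 members (Cfi and A2m added) were higher in NRK-49F with DESeq2 alone, with no filter and with all 16 libraries in 1 fit. These settings tested 17712, 20495 and 14679 genes, and 49.9%, 51.4% and 51.4% of all genes called were higher (52.3% in the fit reported). The interaction was above 0 for 4 members with DESeq2 alone, 6 at a rate of 0.05 and 5 with library totals. Of all genes called, 49.3%, 49.3% and 66.3% were above 0 (47.6% in the fit reported), and 1822 genes were below 0 with library totals. Leaving out 1 library gave 2 to 4 members, with 4 without NRK-52E pH 6.0 replicate 4 or NRK-49F pH 6.0 replicate 1. These percentages and those at pH 6.0 split called genes by direction. They are not shares of all genes tested, so these member counts have no background beside them and are not read as a result about the members. Directions turned, none of them called, within 21 for Cd55 (0.24) and Serping1 (1.09) in NRK-49F and for Cd55 between lines at pH 6.0 (0.06). Leaving out 1 library gave -0.77 to 0.60 for Serping1 in NRK-49F and -2.34 to 0.32 for the A2m interaction, which was 0.19 with library totals. Fewer libraries were fitted within a number; otherwise the cause was not tested.

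With library totals in place of TMM the median of all genes went from 0.001 to -0.207 in NRK-52E, from -0.003 to 0.04 in NRK-49F, from -0.029 to -0.335 and from 0.027 to -0.12 between lines at pH 7.4 and 6.0, and from 0.014 to 0.248 for the interaction; the share of calls that were higher went from 49.8% to 37.6%, 48.8% to 53.1%, 50% to 34.3%, 52.3% to 45% and 47.6% to 66.3%. Over all alternatives together, library totals among them, 1290 values of named list genes were the same, 142 lost a call and 0 turned. These genes were followed only in comparisons where the fit reported had called them. None could therefore gain a call, and a turn was unlikely from the start. No paired analysis was possible because the labels give the groups no shared replicate numbers. The second number, which holds 2 libraries of each pH, was fitted as a covariate instead. With this covariate, 6 members were lower in NRK-52E (C3 added), and 1 was higher and 4 lower in NRK-49F. Of all genes called with it, 49.3% were higher in NRK-52E and 48.7% in NRK-49F. These percentages are not shares of all genes tested, so the member counts are not read as a result about the members. Depth limits Cfb, Cfi, A2m and, in NRK-49F, Serping1.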

Other observations

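Of 16 acute phase protein genes, 14 were counted. In NRK-52E, 1 of 6 tested was called higher and 4 lower at pH 6.0 (median log2 fold change -1.32), and in NRK-49F 1 and 3 of 7 (median -0.60), beside 28.2% and 28.4% of all genes in NRK-52E and 18.5% and 19.4% in NRK-49F. Lcn2, a siderophore-binding protein, fell in both lines, from 8.05 to 2.4 FPM in NRK-52E (log2 -1.76, SE 0.192) and from 54.5 to 6.53 FPM in NRK-49F (-3.08, SE 0.207). Cp, ceruloplasmin, fell from 41.6 to 22.9 FPM (-0.88, SE 0.137) and from 29.8 to 10.3 FPM (-1.55, SE 0.146). The NRK-52E calls of Lcn2 (-1.76, adjusted p = 0.0112, edgeR) and Cp (-0.87, 0.024) were lost within the second number 22 of the library names. Lbp, which carries lipopolysaccharide, fell in NRK-52E from 16.9 to 2.96 FPM (-2.54, SE 0.214) and was at 23.0 and 29.3 FPM in NRK-49F. Hpx, hemopexin, which binds heme, rose in NRK-52E from 2.3 to 6.24 FPM (1.42, SE 0.236), a call lost within each second number of the library names (1.38 and 1.45), and was at 1.9 and 1.24 FPM in NRK-49F, not called. Hp, haptoglobin, which binds hemoglobin, was called higher in NRK-49F (2.18 to 4.75 FPM, 1.10, SE 0.26), a call lost without NRK-49F pH 7.4 replicate 1 or NRK-49F pH 6.0 replicate 1 (estimates from 0.95 to 1.25 over all libraries left out). It was also lost within the second number 21 (0.78, adjusted p = 0.14, edgeR). Fgb and Apcs had 0 counts in all 16 libraries.

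Of 31 genes of cytokine signalling known to act on complement genes, 10 of 24 tested were called higher and 7 lower in NRK-52E (median 0.14), and 1 and 11 of 26 in NRK-49F (median -0.31). Against the shares of all genes just given, 7 of 24 lower in NRK-52E is near the background. Il1r1, the interleukin-1 receptor, fell in both lines, from 41.3 to 11.1 FPM (log2 -1.91, SE 0.144) and from 78.1 to 24.3 FPM (-1.70, SE 0.172). Irf7, an interferon regulatory factor, rose in NRK-52E from 27 to 81.5 FPM (1.58, SE 0.11) and fell in NRK-49F from 79.1 to 48.4 FPM (-0.72, SE 0.102). Cebpd, a C/EBP family member, fell in NRK-49F from 28.6 to 3.22 FPM (-3.16, SE 0.191) and had 0 counts in every NRK-52E library. Ifnb1 and Ifng had 0 counts in all 16 libraries.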
